A study of Mus musculus with 64 samples.

Results

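The response of WT liver to continuous corticosterone (CORT) was examined in 10 of the 64 RNA-seq libraries of the series, namely the livers of 5 WT mice with a CORT pellet and of 5 WT mice with a vehicle pellet. The libraries were chosen by tissue, genotype and treatment as labelled, and no measured value entered the choice. All 10 mice were adult males, 10 to 18 weeks of age, from a cross of a WT C57BL/6J father with a 129sv mother that carried the Ube3a m+/p- allele, and the WT mice were the littermates without the deletion. A slow-release pellet stayed under the skin for 5 days and held 20 mg CORT or, as vehicle, cholesterol, so the vehicle mice received the sterol carrier and the same surgery. The 5 CORT livers are L3, L5, L12, L15 and L20, and the 5 vehicle livers are L1, L4, L6, L13 and L17. In the same cohort, AS mice, which lack the maternal copy of Ube3a, received the same pellets, and their 10 livers were used for one comparison of the response. Each library came from bulk RNA of a liver, in which fewer cells of a type and less RNA per cell cannot be told apart.

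CORT is the main glucocorticoid of mice. In the liver it binds the glucocorticoid receptor (GR, encoded by Nr3c1), a transcription factor that raises genes of glucose production, amino acid breakdown and lipid handling, lowers many inflammatory genes, and induces genes such as Fkbp5 and Tsc22d3 in most tissues. Hepatocytes also secrete most plasma proteins, among them the globulin that carries CORT in blood, and the liver holds a large population of resident macrophages, the Kupffer cells.

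Each liver library held 24264620 to 24735429 read pairs in the deposited table. Counts on genes numbered 18612550 to 19870624 in vehicle and 19864151 to 20334003 in CORT livers, a difference that an exact two-sided permutation test placed at p = 0.0159 (n = 5 and 5, smallest possible p = 0.00794). Levels are given as CPM, the counts scaled to library size by edgeR's TMM method, and a count of 3 corresponded to 0.144 to 0.157 CPM, a floor that covers counting error only. In a principal component analysis of the 500 most variable genes over the 20 livers, PC1 (58.4% of the variance) separated CORT from vehicle livers. Vehicle L1 and L4 and CORT L3 stood apart on PC2 (18.8%), with scores of -24.5, -26.6 and -12.6 against 4.16 to 10.5 in the other 7 WT livers. AS vehicle L2 (-23.3) and AS CORT L7 (-10.8) and L8 (-10.2) lay low on it too. The labels give no batch for these libraries, and counts of called genes are therefore also given without the 3 WT livers. Ube3a itself had a mean of 48.3 ± 4.95 CPM (SD, n = 5) in vehicle and 48.8 ± 4.01 in CORT livers (log2 fold change 0.01 ± 0.0850 SE, adjusted p = 0.938 in edgeR's quasi-likelihood test). Hepatocyte markers such as Alb, the gene of serum albumin, were high in every library labelled liver, with Alb at 71203 to 83045 CPM in vehicle and 76318 to 91738 CPM in CORT livers.

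**Figure D1:**
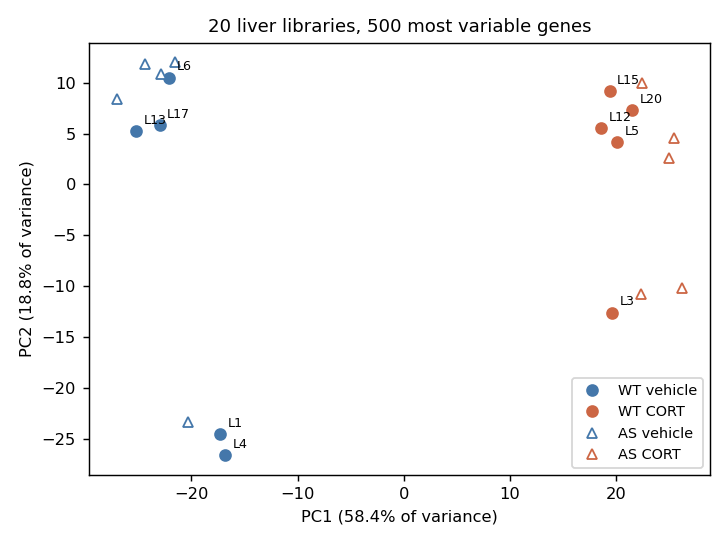
Scores of the 20 liver libraries on PC1 (x axis, 58.4% of variance) and PC2 (y axis, 18.8%), computed from the 500 most variable genes, with filled circles for WT, open triangles for AS, blue for vehicle and orange for CORT. CORT and vehicle livers lie on opposite sides of PC1, and WT vehicle L1 and L4 and WT CORT L3 lie low on PC2, as do 1 AS vehicle and 2 AS CORT livers.

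CORT changed a broad set of genes in WT liver. Of 12273 genes tested with edgeR's quasi-likelihood test, 2286 passed an adjusted p of 0.05, which is 18.6% of all genes tested. Of these, 1071 rose (8.73% of genes tested) and 1215 fell (9.90%), and 201 of those that rose and 328 of those that fell changed at least 2-fold. The median absolute log2 fold change of the genes that passed was 0.562. The 5 CORT and the 5 vehicle values did not overlap in 1732 genes (14.1% of those tested), among them 1542 of the genes that passed. Without vehicle L1 and L4 and CORT L3, 1795 genes passed (887 rose and 908 fell), and 1538 of the 2286 passed again in the same direction. No gene list below was tested as a set, and the percentages over all genes tested stand as the background to each count.

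The lists of metabolic, immune and secretory genes differed in how their members moved. Among 263 metabolic genes tested, 61 rose (23.2%) and 31 fell (11.8%), with a median log2 fold change of 0.12. Among 110 immune genes tested, of 145 listed, 3 rose (2.73%) and 72 fell (65.5%), with a median of -0.68. Scarce members passed the low-count filter through whichever group was higher, and the lists were chosen with earlier results of these data known. Among 194 secretory genes tested, 33 rose (17%) and 40 fell (20.6%), with a median of 0.02, whereas the median over all genes tested was 0.00363. Without the 3 libraries that stood apart on PC2, the counts were 52 and 23 for metabolic, 4 and 59 for immune, and 30 and 32 for secretory genes. CORT livers also had fewer unaligned reads than vehicle livers (3.20 to 4.77% against 5.39 to 8.93%), and the part of this difference in any list was not tested.

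**Figure D2:**
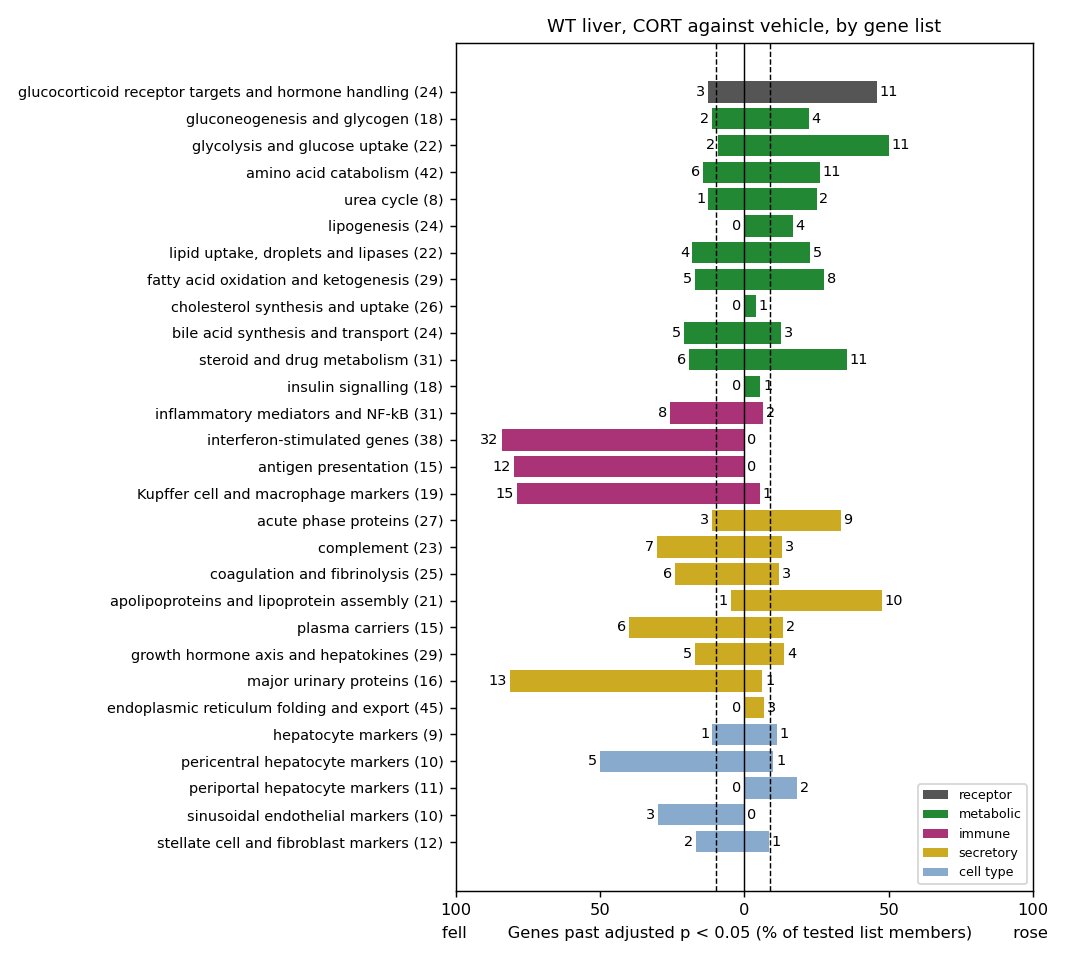
Share of the tested members of each gene list that rose (bars to the right) or fell (bars to the left) in WT CORT against WT vehicle liver, in percent of members tested (number in brackets), for lists with at least 8 members tested; bar ends carry the counts. The dashed lines mark the shares over all genes tested, 8.73% for genes that rose and 9.90% for genes that fell, and the interferon, antigen presentation, macrophage and Mup lists extend far to the left.

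Genes that respond to GR or handle its hormone were examined first. Of 24 such genes tested, 11 rose and 3 fell (12 and 0 without the 3 libraries), with a median log2 fold change of 0.47. Fkbp5, which encodes a chaperone partner of GR that limits hormone binding, had 22.8, 39.3, 12.5, 11.3 and 9.24 CPM in vehicle L1, L4, L6, L13 and L17 and 224, 220.1, 219.6, 182 and 176 CPM in CORT L3, L5, L12, L15 and L20. All 5 CORT livers lay far above all 5 vehicle livers, and Fkbp5 rose 10.7-fold (log2 fold change 3.43 ± 0.311 SE, edgeR adjusted p = 2.06e-07). Tsc22d3, the gene of the anti-inflammatory leucine zipper protein GILZ, had 65.6 to 85.9 CPM in vehicle and 154 to 211 CPM in CORT livers and rose 2.38-fold (log2 1.25 ± 0.115 SE, adjusted p = 2.47e-07). Mt2, a metal-binding metallothionein, had 1.92, 4.92, 1.23, 0.892 and 0.963 CPM in the vehicle livers and 51.0, 64.2, 53.0, 57.6 and 47.7 CPM in the CORT livers, and rose 27.5-fold (log2 4.78 ± 0.441 SE, adjusted p = 2.47e-07). The groups did not overlap for Tsc22d3 or Mt2, and among the vehicle livers L4 was the highest for both Mt2 and Fkbp5. Gadd45b, a stress-inducible regulator of growth arrest, was at 0.0981 to 0.577 CPM in vehicle and 2.87 to 5.98 CPM in CORT livers and rose 13.5-fold (adjusted p = 3.73e-07). Its vehicle values lay near the floor of 3 counts, which makes the fold imprecise. Hsd11b1, which encodes the enzyme that regenerates active glucocorticoid in hepatocytes, rose 1.35-fold from 670.2 ± 32.5 to 903 ± 37.4 CPM (SD, n = 5 each; adjusted p = 6.87e-04). Without vehicle L1 and L4 and CORT L3 the log2 fold changes were larger, at 4.18 for Fkbp5, 5.75 for Mt2 and 4.70 for Gadd45b.

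The 3 members that fell included both receptors for CORT. Nr3c1 had 84.4, 83.7, 84.8, 84.7 and 85.6 CPM in the vehicle livers and 75.8, 78.4, 74.4, 76.3 and 76.6 CPM in the CORT livers. The values were tight within each group and did not overlap, and Nr3c1 was 0.901 of its vehicle level with CORT (log2 -0.15 ± 0.0437 SE, edgeR adjusted p = 0.0202). Nr3c2, the mineralocorticoid receptor gene, was 0.635 of its vehicle level (adjusted p = 0.0248), with higher vehicle values in L1 (20.3 CPM) and L4 (21.1 CPM) than in the other 3 (11.6 to 13.1 CPM). Rgs2, a regulator of G protein signalling, was 0.648 of its vehicle level (adjusted p = 0.0398). Without the 3 libraries that stood apart, none of these 3 passed, while the log2 fold changes were -0.15 for Nr3c1 (adjusted p = 0.0827), -0.64 for Rgs2 (adjusted p = 0.117) and -0.39 for Nr3c2 (adjusted p = 0.196), against -0.15, -0.63 and -0.66 in the fit of all livers. The call of Nr3c2 was also lost without any one of vehicle L1, vehicle L4, CORT L15 or CORT L20 (adjusted p up to 0.0775), and that of Rgs2 without vehicle L4, L6 or L17 or CORT L3, L12 or L20 (up to 0.0863). Per1, a clock gene with a known GR response, did not pass (log2 0.46 ± 0.929 SE, adjusted p = 0.795), with 50 and 54.7 CPM in vehicle L1 and L4, 2.40, 3.36 and 11.3 CPM in the other vehicle livers, and 20.1 to 59.7 CPM in the CORT livers. Its value depended on the fit, at 2.23 without the 3 libraries (adjusted p = 0.206), and Per1 passed with limma-voom (log2 1.71, adjusted p = 0.0456), with 1 surrogate variable (1.54, adjusted p = 0.0212) and with the PC2 score as covariate (2.16, adjusted p = 0.00117). The surrogate variable and the PC2 score were nearly 1 axis (absolute correlation 0.973 over 20 livers). Both were computed from these data, and vehicle L1 and L4 lay low on PC2. Cdkn1a, a cell cycle inhibitor gene, rose 11.4-fold (adjusted p = 0.0104), but CORT L3 had 5.34 CPM while the other CORT livers had 88.9 to 117 CPM, and the vehicle values ran from 0.721 to 15.2 CPM, so the groups overlapped, and it did not pass with limma-voom (adjusted p = 0.0513).

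Promoter sequence was read for the same genes because GR binds DNA as a dimer at an inverted repeat. The letters GNACANNNTGTNC, which read the same on both strands, were searched in the RefSeq promoter table of GRCm38.p6, from 250 bases before to 50 bases after each gene's start. This window held them in 145 of 27025 genes (0.537%). Among genes tested here they were found in 12 of 820 genes that rose (1.46%), 2 of 920 that fell (0.217%) and 23 of 7683 that did not pass (0.299%). Of the 21 genes of the GR target and hormone handling list with a promoter in the table, 2 held them. These were Mt1, which rose, and Sgk1, which did not pass (21.2 CPM in vehicle and 17.4 CPM in CORT livers, log2 -0.29 ± 0.226 SE, edgeR adjusted p = 0.426). A match describes letters in a short window and is not a binding site, and genes without one may hold other sequences or sites elsewhere. The sequences below show 4 genes that rose with the motif upstream of the start, chosen after their values were seen, with the motif in capitals and up to 50 bases on either side, read 5′ to 3′ on the strand of the gene.
Mt1, chr8:94178945-94179057, plus strand, motif 94 to 82 bases before the start: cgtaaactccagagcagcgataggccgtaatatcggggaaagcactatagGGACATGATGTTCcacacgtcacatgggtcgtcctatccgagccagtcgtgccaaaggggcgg
Acnat2, chr4:49408190-49408302, minus strand, motif 101 to 89 bases before the start: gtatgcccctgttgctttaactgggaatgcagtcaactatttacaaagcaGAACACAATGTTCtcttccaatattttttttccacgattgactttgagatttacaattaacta
Serpina3c, chr12:104153885-104153997, minus strand, motif 75 to 63 bases before the start: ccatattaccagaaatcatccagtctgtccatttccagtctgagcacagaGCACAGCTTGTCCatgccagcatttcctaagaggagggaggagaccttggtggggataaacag
Amy1, chr3:113577904-113578000, minus strand, motif 216 to 204 bases before the start: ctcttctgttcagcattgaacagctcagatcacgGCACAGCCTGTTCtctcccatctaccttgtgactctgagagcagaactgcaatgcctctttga

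The genes behind these sequences differ in function and in size of change. Mt1, the metallothionein gene next to Mt2 on chromosome 8, had 13.8, 23.4, 5.45, 8.92 and 6.45 CPM in vehicle and 94.2, 73.8, 66.0, 60.0 and 60.1 CPM in CORT livers, and rose 6.09-fold (log2 2.61 ± 0.379 SE, edgeR adjusted p = 6.06e-05, and log2 3.23 without the 3 libraries that stood apart). Acnat2, which encodes an enzyme that joins fatty acids to amino acids, had 6.44, 3.67, 13.7, 11.3 and 12.8 CPM in vehicle and 124, 212, 248, 251 and 214 CPM in CORT livers, and rose 21.9-fold (log2 4.45 ± 0.416 SE, adjusted p = 3.00e-07). Neither gene had overlapping groups. Amy1, the salivary and liver form of amylase, rose 1.72-fold from 268 ± 16.6 to 462 ± 32.8 CPM (adjusted p = 1.35e-07). Serpina3c, a member of the antichymotrypsin gene cluster, rose 1.99-fold from 11 ± 1.89 to 21.9 ± 6.72 CPM (adjusted p = 0.0165), and this call was lost without CORT L15 (adjusted p = 0.0505) and without the 3 libraries (log2 0.74, adjusted p = 0.171). RefSeq gives 2 starts each for Acnat2 and Amy1, and the one whose window holds the motif is shown. Amy1 and Serpina3c belong to families of similar genes, so reads shared with a close copy are uncertain.

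Genes of steroid and drug metabolism included some of the largest rises in the data. Of 31 tested, 11 rose and 6 fell (11 and 5 without the 3 libraries), with a median log2 fold change of 0.13. Cyp17a1, the steroid hydroxylase and lyase of androgen synthesis, had 12.1, 6.83, 5.94, 8.08 and 4.04 CPM in vehicle and 388, 326, 311, 348 and 382 CPM in CORT livers. It rose 47.4-fold with no overlap of the groups (log2 5.57 ± 0.249 SE, edgeR adjusted p = 1.59e-11). Cyp2b10, a drug-inducible cytochrome P450, had 0.961 to 2.47 CPM in vehicle livers and 45.7, 115, 125, 54.3 and 127 CPM in CORT livers, and rose 53.2-fold (log2 5.73 ± 0.498 SE, adjusted p = 1.26e-07). Sult1e1, the estrogen sulfotransferase, was listed at 0 to 0.193 CPM in vehicle livers, around the floor of 3 counts, and at 27.5, 16.7, 18.9, 8.48 and 39.5 CPM in CORT livers (adjusted p = 2.70e-08). For Sult1e1 the vehicle level is too near the floor for a fold change to be read as a precise value, but every CORT liver lay above every vehicle liver. The 6 genes that fell were Hsd3b5, Akr1c6, Ugt1a1, Sult2a8, Cyp2e1 and Cyp1a2. The call of Hsd3b5 was lost without the 3 libraries (adjusted p = 0.187) and when any 1 liver other than CORT L5 or L12 was left out. Sult2a8, a sulfotransferase of bile acids, had 812, 858, 681, 961 and 694 CPM in vehicle and 419.6, 440.3, 507, 346 and 411 CPM in CORT livers, or 0.530 of the vehicle level (adjusted p = 1.17e-04). Cyp2e1 (0.504 of the vehicle level, adjusted p = 0.00293) and Cyp1a2 (0.548, adjusted p = 6.70e-04), both P450 genes of hepatocytes around the central vein, fell with no overlap. Cyp3a11, the main drug-metabolizing P450 of mouse liver, did not pass (log2 0.07 ± 0.183 SE, adjusted p = 0.856).

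Markers of hepatocyte position are set beside these genes, because several are shared. Of 10 pericentral markers tested, 5 fell (Cyp2e1, Cyp1a2, Oat, Gulo and Lgr5) and Glul rose, with a median log2 fold change of -0.09. The summed level of the list was 7200 to 13996 CPM in vehicle and 5149 to 7463 CPM in CORT livers. Most of this sum was Cyp2e1, with means of 6606 CPM in vehicle and 3327 CPM in CORT livers, against 9855 and 6077 CPM for the list. Without the 3 libraries 4 fell and 1 rose, and Gulo lost its call there (adjusted p = 0.347) and in 11 of the other 19 alternatives. Lgr5, a receptor of the Wnt pathway, fell to 0.403 of its vehicle level (7.07 ± 2.01 against 2.84 ± 0.518 CPM, edgeR adjusted p = 0.00208), while Glul, glutamine synthetase, was 1.26-fold higher with adjusted p = 0.0462, a call lost without any 1 of 9 of the 10 livers (adjusted p up to 0.117). Of 11 periportal markers, 2 rose, Cyp2f2 among them, and 0 fell (1 fell without vehicle L1 or L4, without the 3 libraries, and with the PC2 covariate). A shift of positional markers and a change in the genes themselves cannot be told apart in these data.

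Genes of glucose breakdown passed more often upward than downward. Of 22 glycolysis genes tested, 11 rose and 2 fell, with a median log2 fold change of 0.30, and their summed level was higher in every CORT liver (11827 to 17861 CPM) than in any vehicle liver (7139 to 9934 CPM). Without the 3 libraries 10 rose and 1 fell. Pklr, the liver pyruvate kinase, had 735, 637, 405, 291 and 399.8 CPM in vehicle and 1314, 875, 1046, 1227 and 1566 CPM in CORT livers and rose 2.44-fold with no overlap of the groups (log2 1.29 ± 0.319 SE, edgeR adjusted p = 0.00699). Pfkfb1, which makes and removes the activator of phosphofructokinase, rose 2.82-fold from 24.1 ± 2.90 to 68.1 ± 17 CPM (adjusted p = 1.73e-05). The 2 that fell, Hk1 (0.685 of the vehicle level, adjusted p = 0.0119) and Pkm (0.793, adjusted p = 0.0458), encode the hexokinase and pyruvate kinase of cells other than hepatocytes, and the call of Pkm was lost without vehicle L6 or L17 or CORT L3, L15 or L20 (adjusted p up to 0.123).

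Of 18 genes of gluconeogenesis and glycogen tested, 4 rose and 2 fell (Pgm2, and Phka2, a subunit of the kinase that activates glycogen phosphorylase), with a median log2 fold change of 0.02. The counts were 4 and 1 without the 3 libraries, and 7 and 2 with the PC2 covariate. The call of Phka2 was lost without the 3 libraries (adjusted p = 0.0583) and without any one of vehicle L1 or L17 or CORT L5, L15 or L20. Pck1, the cytosolic carboxykinase that starts glucose synthesis from amino acids, had 2630, 1581, 361, 836 and 808 CPM in vehicle and 2165, 1512, 1017, 1298 and 897 CPM in CORT livers. The spread among vehicle livers, with L1 and L4 highest, exceeded the difference between groups (log2 0.15 ± 0.391 SE, edgeR adjusted p = 0.845), and without the 3 libraries the log2 fold change was 0.82 (adjusted p = 0.116). G6pc, the glucose-6-phosphatase that releases glucose, was at 258 to 547 CPM in vehicle and 524 to 741 CPM in CORT livers (log2 0.52 ± 0.231 SE, adjusted p = 0.129). Pcx, the pyruvate carboxylase, had 647, 631, 607, 572 and 552 CPM in vehicle and 914, 893, 879.9, 1037 and 1121 CPM in CORT livers and rose 1.61-fold (log2 0.69 ± 0.0812 SE, adjusted p = 5.47e-06). Ppp1r3b, which tethers a phosphatase to glycogen and favours its synthesis, rose 2.23-fold (adjusted p = 0.00770) and no longer passed without the 3 libraries. Slc37a4, the glucose-6-phosphate transporter, rose 1.73-fold (adjusted p = 0.0269), a call lost without vehicle L6, L13 or L17 or CORT L20 (adjusted p up to 0.0766). Of 18 insulin signalling genes, 1 passed (2 with the PC2 covariate), and 1 fell without vehicle L1 and 2 without vehicle L4. That gene was Foxo1, a transcription factor restrained by insulin (33.8 ± 7.12 CPM in vehicle and 45.1 ± 4.09 in CORT livers, adjusted p = 0.0108), which did not pass in a fit of the 10 WT livers alone (adjusted p = 0.0557), while Insr (log2 -0.06 ± 0.100 SE) and Irs2 (-0.30 ± 0.288 SE) did not pass.

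**Figure D3:**
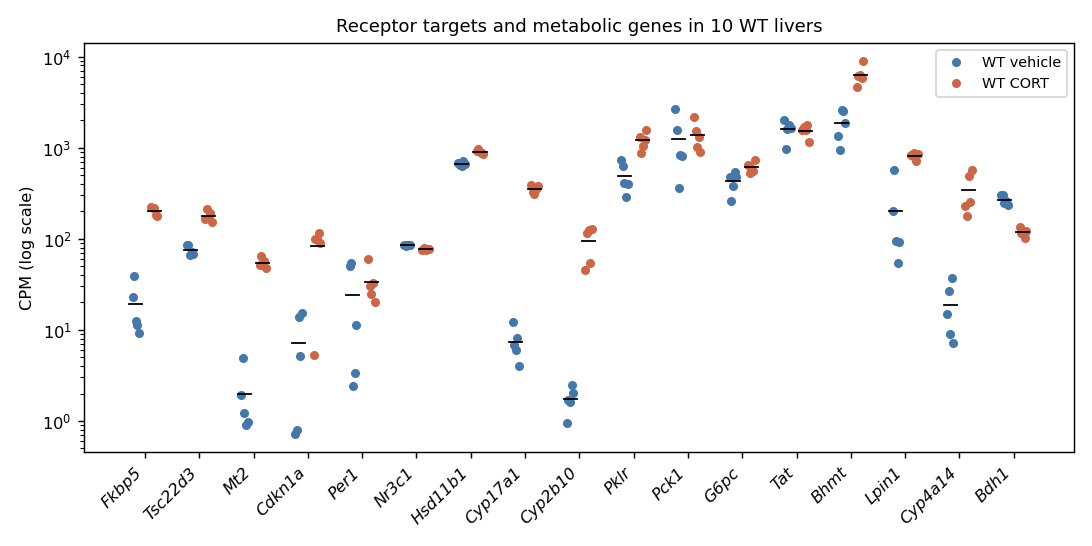
CPM (y axis, log scale) of 17 receptor-related and metabolic genes in each of the 5 WT vehicle (blue) and 5 WT CORT (orange) livers, with a black line at each group mean. Cyp17a1, Cyp2b10, Mt2 and Fkbp5 show wide gaps between the groups, whereas Pck1, Tat and Per1 overlap, with vehicle values of Per1 from 2.40 to 54.7 CPM.

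Genes of amino acid catabolism moved in both directions. Of 42 genes tested, 11 rose and 6 fell, with a median log2 fold change of 0.07, and 7 rose and 6 fell without the 3 libraries. Their summed level was 24550 to 29126 CPM in vehicle and 32446 to 38295 CPM in CORT livers, with no overlap. Bhmt, which remethylates homocysteine from betaine, had 1340, 949, 2615, 2520 and 1861 CPM in vehicle and 4643, 6142, 6246, 5827 and 8882 CPM in CORT livers. Every CORT liver was above every vehicle liver, and Bhmt rose 3.42-fold (log2 1.77 ± 0.300 SE, edgeR adjusted p = 2.93e-04). Csad, of taurine synthesis, rose 2.47-fold (adjusted p = 0.0171) and did not pass without the 3 libraries, and Sdsl, a serine dehydratase, rose 2.07-fold from 12.8 ± 1.41 to 26.6 ± 2.17 CPM (adjusted p = 1.44e-06). Agxt, which turns glyoxylate into glycine, had 255, 278, 328, 289.6 and 292 CPM in vehicle and 159.6, 169, 148, 146 and 151 CPM in CORT livers and fell to 0.537 of the vehicle level (log2 -0.90 ± 0.0836 SE, adjusted p = 2.96e-07). Amdhd1, of histidine breakdown, fell to 0.546 (adjusted p = 1.42e-07). Tat, the tyrosine aminotransferase, and Tdo2, the tryptophan dioxygenase, are textbook GR targets and did not pass. Tat was at 1597 ± 379 CPM in vehicle and 1539 ± 235 in CORT livers (adjusted p = 0.895), and Tdo2 at 1476 ± 107 and 1366 ± 156 CPM (adjusted p = 0.563).

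In the urea cycle, which disposes of amino acid nitrogen, 2 of 8 genes rose and 1 fell. Asl, argininosuccinate lyase, had 629, 594, 405, 452 and 331 CPM in vehicle and 1074, 807, 819, 814 and 960.3 CPM in CORT livers and rose 1.86-fold (log2 0.89 ± 0.176 SE, edgeR adjusted p = 0.00111). Otc, ornithine transcarbamylase, fell to 0.721 of its vehicle level (546 ± 64.4 against 394 ± 18.7 CPM, adjusted p = 6.49e-04). Neither Asl nor Otc had overlapping groups, and all counts were the same without the 3 libraries.

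Genes of lipogenesis, the synthesis of fatty acids and triglycerides, passed upward or not at all. Of 24 tested, 4 rose (16.7%, against 8.73% of all genes tested) and 0 fell (3 and 0 without the 3 libraries), with a median log2 fold change of 0.48. Lpin1, a phosphatidate phosphatase of triglyceride synthesis that also acts in the nucleus, had 204, 576, 94.3, 53.7 and 92.8 CPM in vehicle and 825, 806, 872, 709 and 854 CPM in CORT livers. Vehicle L4 lay far above the other vehicle livers but below all CORT livers, and Lpin1 rose 3.98-fold (log2 1.99 ± 0.545 SE, edgeR adjusted p = 0.0134), with a log2 fold change of 3.34 without the 3 libraries. Acacb, the carboxylase that makes malonyl-CoA at the mitochondrion, rose 2.40-fold (adjusted p = 0.0213) and Me1, malic enzyme, 2.09-fold (adjusted p = 0.0228). Both calls were lost without the 3 libraries, without vehicle L4 or L17, and without CORT L15 for Acacb (adjusted p up to 0.0690) or L20 for Me1 (up to 0.0800). Without vehicle L4, 2 lipogenesis genes rose, and 7 with the PC2 covariate. Lpin2, a relative of Lpin1, was the other gene that rose in the fit of all livers. Fasn, the fatty acid synthase, had 642 to 1931 CPM in vehicle and 1555, 1394, 1737, 3635 and 4193 CPM in CORT livers and did not pass (log2 0.94 ± 0.400 SE, adjusted p = 0.112). Scd1, the stearoyl-CoA desaturase (log2 0.74 ± 0.423 SE, adjusted p = 0.250), and Srebf1, the sterol regulatory factor (-0.40 ± 0.286 SE, adjusted p = 0.366), did not pass either.

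Lipid storage and oxidation genes also divided. Of 22 genes of lipid uptake, droplets and lipases, 5 rose and 4 fell (4 and 2 without the 3 libraries), and 3 rose without any one of vehicle L6, L13 or L17 or CORT L12 or L20. Plin5, which coats droplets next to mitochondria, had 26.4, 31.9, 42.3, 34.8 and 38.3 CPM in vehicle and 66.9, 95.4, 86.9, 86.2 and 112 CPM in CORT livers and rose 2.58-fold (log2 1.37 ± 0.156 SE, edgeR adjusted p = 3.71e-06). Lpl, lipoprotein lipase, had 10.1, 10.7, 17.9, 33.5 and 28.7 CPM in vehicle and 5.88, 8.41, 6.98, 4.70 and 5.61 CPM in CORT livers and fell to 0.313 (log2 -1.67 ± 0.334 SE, adjusted p = 0.00123). The groups of both genes were separate. Without the 3 libraries 4 genes rose and 2 fell, and Fabp1, the liver fatty acid binding protein gene (0.720 of the vehicle level, adjusted p = 0.0118), no longer passed.

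Of 29 genes of fatty acid oxidation and ketone synthesis, 8 rose and 5 fell (7 and 3 without the 3 libraries), with a median log2 fold change of 0.05. Cyp4a14, a fatty acid hydroxylase that is a marker of PPARα activity, had 14.8, 26.5, 9.08, 37.2 and 7.17 CPM in vehicle and 231, 179, 486, 251 and 575 CPM in CORT livers. All CORT livers were higher, and Cyp4a14 rose 18.2-fold (log2 4.18 ± 0.581 SE, edgeR adjusted p = 3.79e-05). Its neighbour Cyp4a10 rose 4.31-fold (adjusted p = 0.00178) and Acot1, a fatty acyl-CoA thioesterase, 3.19-fold (adjusted p = 5.97e-04). Ppara, the gene of PPARα itself, fell to 0.708 of its vehicle level (edgeR adjusted p = 0.0213), a call lost in 6 of 20 alternatives. Bdh1, which makes the ketone body hydroxybutyrate, had 302, 302, 245, 257 and 235 CPM in vehicle and 135, 115, 114, 102 and 121 CPM in CORT livers and fell to 0.437 (log2 -1.19 ± 0.0965 SE, adjusted p = 4.54e-08). Cpt1a, the gate of mitochondrial fatty acid entry, did not pass (log2 -0.39 ± 0.245 SE, adjusted p = 0.299), with vehicle L1 and L4 at 467 and 506 CPM and the other vehicle livers at 208 to 277 CPM. The counts without the 3 libraries were 7 and 3.

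In cholesterol synthesis and uptake, 1 of 26 genes rose (2 without vehicle L17 or CORT L12) and 0 fell at a median log2 fold change of 0.36. This count depended on the fit, with 5 that rose in a fit of the 10 WT livers alone, 4 with limma-voom, 8 with 1 surrogate variable, and 5 with the PC2 covariate, the last 2 with 1 that fell. Of 24 bile acid genes, 3 rose and 5 fell, and 2 and 4 without the 3 libraries. Slc10a1, the sodium-dependent uptake carrier of bile acids, rose 1.43-fold (edgeR adjusted p = 0.0119), while Abcg8, which with Abcg5 exports sterols into bile, fell to 0.532 (adjusted p = 0.00208) and Abcc3, an export pump towards blood, to 0.630 (adjusted p = 2.21e-04). Cyp7a1, the rate-limiting enzyme of bile acid synthesis, had 372 and 304 CPM in vehicle L1 and L4, 14.5, 75.6 and 25.9 CPM in the other vehicle livers, and 50.7 to 119.5 CPM in CORT livers, and did not pass (log2 -0.99 ± 0.734 SE, adjusted p = 0.394). The direction was not stable, since the log2 fold change was 0.86 without the 3 libraries (adjusted p = 0.471), 0.49 with the PC2 covariate, 0.22 with limma-voom and 0.01 with 1 surrogate variable.

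Of the metabolic, immune and secretory groups, the immune genes gave the most one-sided counts. All 38 interferon-stimulated genes listed were tested, and 32 fell and 0 rose, with a median log2 fold change of -0.92. Their summed level was 747 to 860.3 CPM in vehicle and 506 to 586 CPM in CORT livers, and 29 fell without the 3 libraries. Irf7, the transcription factor that amplifies interferon production, had 21, 24.1, 14.9, 12.9 and 21.8 CPM in vehicle and 8.55, 7.54, 7.55, 9.0 and 6.62 CPM in CORT livers and fell to 0.415 (log2 -1.27 ± 0.158 SE, edgeR adjusted p = 1.11e-05). Isg15, a ubiquitin-like antiviral protein gene, had 6.68, 5.98, 6.58, 7.66 and 8.09 CPM in vehicle and 2.77, 2.87, 3.10, 3.27 and 3.11 CPM in CORT livers and fell to 0.433 (log2 -1.21 ± 0.180 SE, adjusted p = 8.24e-05). In both genes the highest CORT liver lay below the lowest vehicle liver. Ifit3b, of the antiviral Ifit family, fell to 0.185 (2.01 ± 0.357 against 0.366 ± 0.0971 CPM, adjusted p = 1.04e-04), and Tgtp1, an interferon-gamma-induced GTPase gene, went from 0.442 to 1.89 CPM in vehicle livers to 0 to 0.154 CPM in CORT livers, near or under the floor (adjusted p = 5.23e-04). Ifit3b and Tgtp1 have close copies, so the split of their reads is uncertain.

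Genes of antigen presentation, which load and display peptides to T cells, fell or did not pass. Of 15 tested, 12 fell and 0 rose, with a median log2 fold change of -0.77, and 9 fell without the 3 libraries. Cd74, the invariant chain that escorts class II molecules, had 74.3, 70.7, 59.9, 86.2 and 54.3 CPM in vehicle and 20.9, 17.3, 17.4, 23.5 and 14.4 CPM in CORT livers and fell to 0.271 (log2 -1.88 ± 0.158 SE, edgeR adjusted p = 7.26e-08). H2-Eb1, a class II chain, had 24.1, 23.1, 20.4, 26.7 and 15.2 CPM in vehicle and 4.99, 3.28, 3.36, 4.70 and 4.23 CPM in CORT livers and fell to 0.189 (log2 -2.41 ± 0.160 SE, adjusted p = 2.96e-09). The groups of both were well apart. H2-Ab1 fell to 0.201 (adjusted p = 5.13e-08), and Ciita, the master regulator of class II genes, to 0.160 (1.82 ± 0.656 against 0.284 ± 0.140 CPM, adjusted p = 2.30e-05). H2-K1, a class I gene expressed by hepatocytes as by most cells, did not pass, at 954 ± 80.4 CPM in vehicle and 966 ± 56.5 CPM in CORT livers (adjusted p = 0.890).

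Markers of immune cells fell as well. Of 19 Kupffer cell and macrophage markers tested, 15 fell and 1 rose, with a median log2 fold change of -0.67 (13 and 1 without the 3 libraries), and the summed level was 398 to 535 CPM in vehicle and 347 to 447 CPM in CORT livers. Clec4f, a lectin particular to Kupffer cells, had 52.1, 45.5, 46.4, 40.4 and 50 CPM in vehicle and 33.5, 28.6, 26.7, 38.8 and 24.8 CPM in CORT livers and fell to 0.650 (log2 -0.62 ± 0.116 SE, edgeR adjusted p = 6.74e-04). Cd5l, a secreted macrophage protein gene, had 67.1, 59.1, 42.2, 54.2 and 52.2 CPM in vehicle and 26.8, 21, 23.3, 24.5 and 18.3 CPM in CORT livers and fell to 0.414 (log2 -1.27 ± 0.155 SE, adjusted p = 8.18e-06). No CORT liver reached the lowest vehicle liver for either gene. Folr2, a folate receptor of resident macrophages, fell to 0.380 (adjusted p = 1.03e-05) and Aif1, a macrophage actin-binding protein gene, to 0.322 (adjusted p = 1.47e-04). The gene that rose was Slc40a1, the iron exporter ferroportin, which is made by macrophages and hepatocytes and rose 1.5-fold from 125 ± 34.1 to 187 ± 19.7 CPM (adjusted p = 0.0108).

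Lymphocyte markers were scarce, and 6 of 23 passed the filter on low counts, of which 4 fell. These members passed the filter through whichever group was higher, so the count describes them only. Ptprc, the pan-leukocyte antigen CD45, had 3.89, 4.27, 3.39, 4.15 and 4.09 CPM in vehicle and 1.04, 1.44, 1.09, 2.45 and 1.27 CPM in CORT livers and fell to 0.369 (log2 -1.44 ± 0.217 SE, edgeR adjusted p = 9.28e-05). Cd79a, part of the B cell receptor, was at 0.336 to 0.834 CPM in vehicle and 0.0494 to 0.205 CPM in CORT livers, which lies around the floor (adjusted p = 0.00268). Cd3e, of the T cell receptor, was below the filter, at 0.192 to 0.703 CPM in vehicle and 0 to 0.0513 CPM in CORT livers. Of 11 neutrophil markers, 1 passed the filter (Csf3r, the receptor of granulocyte colony-stimulating factor, which fell, but not without the 3 libraries), and the summed level was 1.32 to 3.16 CPM in vehicle and 0.718 to 1.48 CPM in CORT livers.

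Markers of other cells moved with these lists in part. The 7 blood and erythroid markers summed to 342 to 573 CPM in vehicle and 228 to 328 CPM in CORT livers, without overlap, and 2 of 5 tested fell (0 without the 3 libraries, and 0 without any one of vehicle L4 or L17 or CORT L3, L5 or L12). Of 10 sinusoidal endothelial markers, 3 fell and 0 rose, with sums of 275 to 407 CPM in vehicle and 225 to 404 CPM in CORT livers, and 0 fell without the 3 libraries. With 1 liver left out the number that fell was 0 without CORT L5 or L20, 1 without vehicle L1, L6 or L17 or CORT L15, and 6 without CORT L12. Stab2, a scavenger receptor that marks these cells, did not pass (log2 -0.17 ± 0.147 SE, edgeR adjusted p = 0.471). Of 12 stellate cell and fibroblast markers, 1 rose and 2 fell, with sums of 318 to 466 and 393 to 471 CPM, and these calls also changed with the livers used (0 to 1 rose and 1 to 2 fell with 1 liver left out). Of 3 cholangiocyte markers tested, 0 passed. The part of blood content or of cell numbers in the fall of immune genes was not tested.

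Inflammatory mediators were less one-sided than the interferon list. Of 31 tested, 8 fell and 2 rose, with a median log2 fold change of -0.10 (4 fell and 3 rose without the 3 libraries, and 5 fell without vehicle L1 or L13, while 4 rose with the PC2 covariate). Cxcl1, a chemokine that attracts neutrophils, had 3.99, 2.16, 3.39, 3.62 and 2.70 CPM in vehicle and 1.73, 1.23, 1.34, 1.18 and 1.38 CPM in CORT livers and fell to 0.434 (log2 -1.20 ± 0.209 SE, edgeR adjusted p = 3.51e-04). Il1b, the gene of interleukin-1β, fell to 0.323 (adjusted p = 0.00856) but overlapped between the groups and did not pass without the 3 libraries. The 2 that rose were the chains of the interleukin-1 receptor, Il1r1 at 23.9 ± 2.61 CPM in vehicle and 41.3 ± 10.1 CPM in CORT livers (1.73-fold, adjusted p = 0.00373) and Il1rap (1.29-fold, adjusted p = 0.00126). Nfkbia, an inhibitor of NF-kB that GR can induce, was level at 32.1 ± 9.86 and 31.6 ± 4.61 CPM (log2 -0.02 ± 0.166 SE, adjusted p = 0.950).

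**Figure D4:**
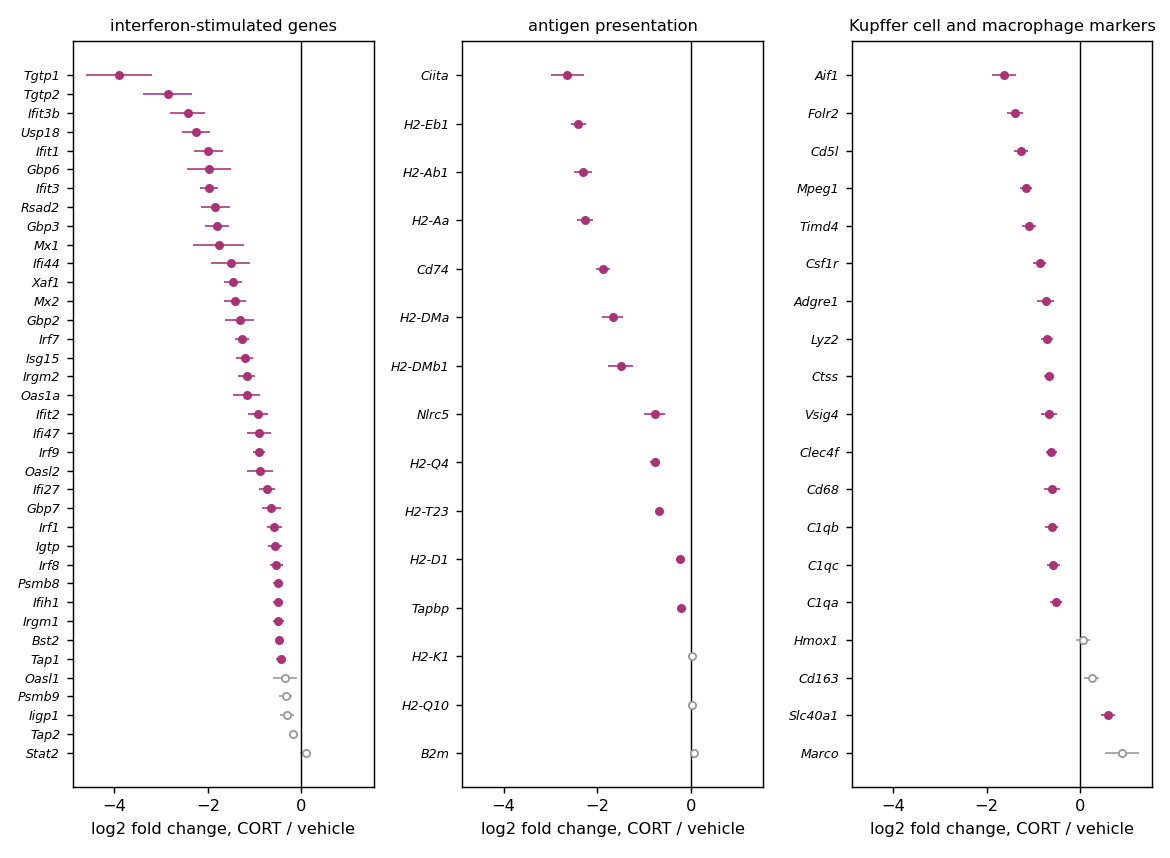
Log2 fold change of CORT over vehicle in WT liver (x axis, bars ± 1 SE from edgeR) for 37 of the 38 interferon genes and all tested genes of the antigen presentation and of the Kupffer cell and macrophage lists; filled points passed an adjusted p of 0.05 and open grey points did not. Of the 37, 15 and 19 genes shown, 32, 12 and 15 fell, and Slc40a1 in the macrophage list rose.

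Among secreted proteins, the acute phase genes went both ways. Of 27 tested, 9 rose and 3 fell, with a median log2 fold change of -0.01 (8 and 3 without the 3 libraries). Hp, haptoglobin, had 1514, 1782, 1773, 1603 and 1723 CPM in vehicle and 3076, 3964, 3178, 3169 and 2949 CPM in CORT livers and rose 1.95-fold (log2 0.96 ± 0.116 SE, edgeR adjusted p = 6.97e-06). Lcn2, the iron-scavenging lipocalin, had 1.15, 2.46, 1.86, 1.57 and 1.68 CPM in vehicle and 8.75, 10.6, 10.8, 9.46 and 16.6 CPM in CORT livers and rose 6.41-fold (log2 2.68 ± 0.402 SE, adjusted p = 8.62e-05). Lbp, which presents bacterial lipopolysaccharide, rose 2.04-fold from 74.3 ± 13.4 to 152 ± 11.1 CPM (adjusted p = 2.89e-05). In contrast, Saa1, a serum amyloid A gene, had 20.4, 31.6, 34.3, 19.8 and 19.3 CPM in vehicle and 11, 6.62, 3.57, 6.29 and 7.29 CPM in CORT livers and fell to 0.278 (log2 -1.85 ± 0.354 SE, adjusted p = 8.53e-04). Saa3 fell to 0.314 (adjusted p = 8.85e-04), and Hpx, the haem carrier hemopexin, to 0.723 (adjusted p = 3.27e-04). The groups of these 6 genes did not overlap. Orm1, the acid glycoprotein gene, did not pass (1.18-fold, adjusted p = 0.0574), but did with DESeq2 (adjusted p = 0.0377), limma-voom (0.0249) and 1 surrogate variable (0.0425), and without vehicle L4, vehicle L6 or CORT L3 (0.0254 to 0.0494).

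Complement and coagulation genes changed by small factors in both directions. Of 23 complement genes tested, 3 rose and 7 fell, and of 25 coagulation genes 3 rose and 6 fell (3 and 4, and 3 and 2, without the 3 libraries). Without vehicle L4 or with the PC2 covariate, 5 coagulation genes rose. C3, the central complement protein gene, rose 1.32-fold from 7277 ± 652 to 9627 ± 1023 CPM (edgeR adjusted p = 0.00547). C4bp, an inhibitor of complement, had 524, 534, 523, 528 and 512 CPM in vehicle and 864, 881, 790.1, 799.6 and 925 CPM in CORT livers and rose 1.62-fold (log2 0.70 ± 0.0737 SE, adjusted p = 1.32e-06). C2 fell to 0.645 (adjusted p = 1.28e-04) and Hc, which encodes complement C5, to 0.805 (adjusted p = 0.00678). F9, clotting factor IX, had 152, 171, 169, 171 and 165 CPM in vehicle and 267, 285, 293, 303 and 304 CPM in CORT livers and rose 1.75-fold (log2 0.81 ± 0.0827 SE, adjusted p = 9.57e-07). Serpinc1, antithrombin, rose 1.17-fold (adjusted p = 0.00396), Pros1, the anticoagulant protein S, fell to 0.722 (adjusted p = 3.77e-04), and F2, prothrombin, did not pass (1.07-fold, adjusted p = 0.302). The groups of C3, C4bp, C2, Hc, F9, Serpinc1 and Pros1 did not overlap.

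Genes of lipoproteins rose more often than they fell. Of 21 tested, 10 rose and 1 fell, with a median log2 fold change of 0.29 (8 and 0 without the 3 libraries). The one that fell, Lipc, hepatic lipase, lost its call when any 1 liver other than CORT L5 or L12 was left out. The summed level of the list was 46877 to 49366 CPM in vehicle and 50702 to 58035 CPM in CORT livers. Apoa4, an apolipoprotein of triglyceride-rich particles, had 502, 486, 743, 352 and 487 CPM in vehicle and 4015, 3622, 2468, 3049 and 4468 CPM in CORT livers. All CORT livers were far above the vehicle livers, and Apoa4 rose 6.85-fold (log2 2.78 ± 0.178 SE, edgeR adjusted p = 1.76e-09). Tm6sf2, which loads lipid onto secreted particles, rose 2.04-fold from 34.2 ± 5.32 to 69.7 ± 9.13 CPM (adjusted p = 5.38e-06). Angptl4, a secreted inhibitor of lipoprotein lipase and a GR target, had 56.8, 94.7, 14.9, 31.3 and 17.1 CPM in vehicle and 111, 130.4, 136, 112 and 122 CPM in CORT livers and rose 2.84-fold (adjusted p = 0.0294), a call lost without vehicle L6, L13 or L17 or CORT L5, L12 or L20 (adjusted p up to 0.0718). Without the 3 libraries its log2 fold change was 2.57 instead of 1.51. Apoa1 (log2 -0.07 ± 0.116 SE, adjusted p = 0.735) and Apob (0.21 ± 0.152 SE, adjusted p = 0.372), the main proteins of high and low density lipoproteins, did not pass.

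Among the plasma carriers, the genes of the globulins that bind CORT and thyroxine fell. Of 15 carriers tested, 6 fell and 2 rose, with a median log2 fold change of -0.11 (5 and 3 without the 3 libraries). Serpina6 encodes corticosteroid-binding globulin, the carrier of CORT in blood, and had 401, 475, 171, 240.2 and 217 CPM in vehicle and 97.6, 53.7, 60.1, 62.5 and 64.9 CPM in CORT livers. The highest CORT liver, L3, lay below the lowest vehicle liver, and Serpina6 fell to 0.225 (log2 -2.15 ± 0.278 SE, edgeR adjusted p = 1.73e-05). Serpina7, thyroxine-binding globulin, had 24.2, 42.5, 45.8, 42.9 and 47.8 CPM in vehicle and 9.99, 11.2, 9.31, 8.38 and 11.9 CPM in CORT livers and fell to 0.250 (log2 -2.0 ± 0.322 SE, adjusted p = 1.79e-04). Gc, the vitamin D-binding protein gene, rose 1.35-fold from 7305 ± 211 to 9833 ± 282 CPM (adjusted p = 4.40e-05). Alb did not pass (log2 0.14 ± 0.103 SE, adjusted p = 0.371).

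Of 29 genes of the growth hormone axis and of hepatokines, the hormones secreted by liver, 4 rose and 5 fell (4 and 6 without the 3 libraries, 6 and 8 with the PC2 covariate). Igfbp2, which binds insulin-like growth factors, had 520.3, 742, 313, 635 and 356 CPM in vehicle and 55.8, 70.6, 94.1, 54.2 and 67.3 CPM in CORT livers and fell to 0.133 (log2 -2.91 ± 0.289 SE, edgeR adjusted p = 6.50e-07). Enho, of the peptide adropin, had 29.4, 40.8, 28.0, 45.5 and 37.6 CPM in vehicle and 5.49, 10.3, 8.48, 5.72 and 4.89 CPM in CORT livers and fell to 0.192 (log2 -2.38 ± 0.247 SE, adjusted p = 1.16e-06). Both genes had a clear gap between the groups. Igf1, the growth factor made under growth hormone, did not pass (1.11-fold, adjusted p = 0.249). Fgf1, a growth factor with actions on glucose, rose 1.85-fold from 97.1 ± 4.84 to 179.9 ± 12.2 CPM (adjusted p = 2.51e-06), and Fgf21, a fasting and stress hormone, rose 3.54-fold (adjusted p = 0.0134) with overlapping groups and no call without the 3 libraries.

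The major urinary proteins are small pheromone carriers that male liver secretes in large amounts under growth hormone. Of 16 Mup genes tested, of 21 listed, 13 fell and 1 rose, with a median log2 fold change of -1.85 (12 and 1 without the 3 libraries). Mup15 had 66.0, 90.8, 105, 173 and 45 CPM in vehicle and 5.09, 7.28, 7.91, 5.62 and 2.75 CPM in CORT livers and fell to 0.0599 (log2 -4.06 ± 0.520 SE, edgeR adjusted p = 1.53e-05). Mup18 had 11.7, 9.04, 8.34, 26.2 and 3.13 CPM in vehicle and 0.0989 to 0.569 CPM in CORT livers, near the floor of 3 counts, so its fold is imprecise (log2 -5.18 ± 0.563 SE, adjusted p = 2.00e-06). For both genes every CORT liver lay far below every vehicle liver. Mup20, the male pheromone darcin, had 565, 815, 708, 584 and 545 CPM in vehicle and 1023, 1639, 1101, 809 and 902 CPM in CORT livers and rose 1.70-fold (log2 0.77 ± 0.197 SE, adjusted p = 0.00903), with L15 below the highest vehicle liver. Mup3 did not pass (6011 ± 521 and 6431 ± 746 CPM, adjusted p = 0.799). The summed level of the family overlapped, at 7741 to 10995 CPM in vehicle and 6849 to 10135 CPM in CORT livers. Most Mup genes are near-identical copies, so their separate values are uncertain.

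Secreted proteins pass through the endoplasmic reticulum, and its genes of protein folding and export were examined next. Of 45 tested, 3 rose and 0 fell, with a median log2 fold change of 0.12. The counts were 2 and 1 without the 3 libraries, and 6 and 0 with the PC2 covariate. The number that rose was 1 without CORT L5 or L15, 5 without vehicle L17, and 6 without vehicle L6 or CORT L3. Derl2, of the removal of misfolded proteins, rose 1.28-fold from 117 ± 10.9 to 150.4 ± 13 CPM (edgeR adjusted p = 0.00310). The calls of Dnajc3 (1.29-fold, adjusted p = 0.0229) and Canx (1.20-fold, adjusted p = 0.0197), a co-chaperone and a chaperone gene, were lost without the 3 libraries, without vehicle L1, and without CORT L5 or L15 (adjusted p up to 0.0905 for Dnajc3, which also lost it without vehicle L4 or L13, and 0.0716 for Canx). Hspa5, the main chaperone BiP, was at 505 to 1346 CPM in vehicle and 728 to 1463 CPM in CORT livers and did not pass (log2 0.35 ± 0.224 SE, adjusted p = 0.312).

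**Figure D5:**
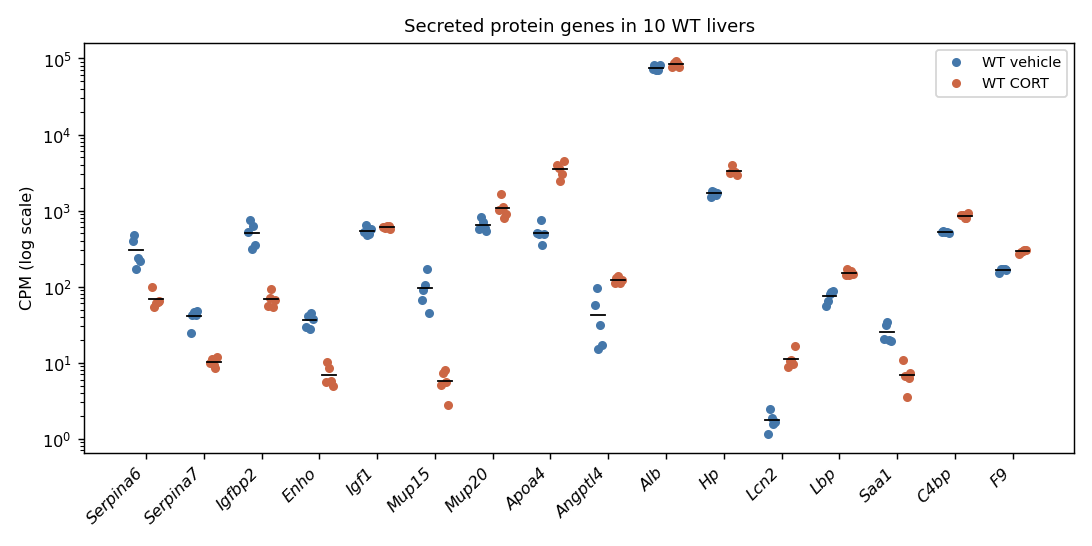
CPM (y axis, log scale) of 16 genes of secreted proteins in each of the 5 WT vehicle (blue) and 5 WT CORT (orange) livers, with a black line at each group mean. Serpina6, Serpina7, Igfbp2, Enho, Mup15 and Saa1 lie lower and Apoa4, Hp, Lcn2, Lbp, C4bp and F9 higher in all 5 CORT livers, while Igf1 and Alb overlap.

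The response of WT liver was set against that of AS liver, measured in other mice with the same pellets. In AS liver 3380 of 12273 genes passed (27.5%), with 1544 that rose and 1836 that fell, and 1674 of the 2286 WT genes passed in the same direction in both. Of 38 interferon-stimulated genes, 37 fell in AS and 32 in WT liver. These counts are not a test of a difference. The test of the CORT effect in AS minus that in WT liver called 0 genes (0% of genes tested) with edgeR's quasi-likelihood test, with 995 genes at an unadjusted p under 0.05, whereas DESeq2 called 9 and limma-voom called 1. With the PC2 score as covariate 2 genes passed, and a fit without the 3 AS livers low on PC2 was not run. The smallest adjusted p in edgeR was 0.103, shared by Tm7sf2 and Fmo2. Tm7sf2, a sterol reductase gene, had 159, 158, 222, 205 and 192 CPM in WT vehicle and 239, 233, 214, 229 and 286 CPM in WT CORT livers (log2 0.36 ± 0.141 SE, adjusted p = 0.0823) but fell in AS liver (log2 -0.82 ± 0.142 SE). Fmo2, a flavin monooxygenase, rose 3.46-fold in WT liver (adjusted p = 3.02e-04) and by a log2 fold change of 4.23 ± 0.332 SE in AS liver, a difference of 2.44 ± 0.431 SE. For Fkbp5 the log2 fold change was 3.43 in WT and 4.14 in AS liver, and for Serpina6 -2.15 and -2.44.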

How the data were processed

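RNA was taken from whole liver of 20 mice of the continuous cohort, and stranded mRNA libraries were sequenced as paired reads. The authors checked the reads (FastQC, MultiQC), aligned them to the mouse genome (mm10, which is GRCm38) with STAR, and counted them per gene with HTSeq, all within a release of the BioWDL pipeline named in the methods of the study, and they deposited raw counts per gene without normalization (the annotation release and the strand setting of the counting are not given in the sources used here). The deposited counts also hold rows of reads on no gene, among them 3.20 to 8.93% of reads not aligned in the 10 WT livers, which stayed out of library sizes and tests. Symbols and positions came from GENCODE release M21 on GRCm38 for 55480 of 55573 gene IDs, and promoter sequences from RefSeq (GRCm38.p6).

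A gene was tested where 3 or more livers of 1 group exceeded 20 counts after median-of-ratios scaling (12273 genes). The 4 liver groups entered 1 fit of edgeR 4.0.16 (R 4.3.3) with TMM scaling, and CORT was compared with vehicle by the quasi-likelihood F test with Benjamini-Hochberg adjustment over all genes tested, at 0.05. The SE of a log2 fold change was its size divided by the square root of F. The step was tested on simulated data. CPM were TMM-scaled and are not corrected for transcript length, so levels are not compared between genes. The labels name no batch, and p-values measure the spread between these mice.

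The named genes were the well-known members of each list, up to 3 with the largest log2 rise and up to 3 with the largest log2 fall in each list among genes that passed, the 6 largest rises and falls over all genes without overlap and with a mean of at least 1 CPM, Ube3a, and up to 6 genes with the smallest adjusted p of the difference between AS and WT liver. Mt1, Acnat2, Amy1, and genes given by symbol alone were named after their values were seen. The members and the lists were chosen with earlier results of these data known. The alternatives were DESeq2 1.42.0, its size factors in edgeR, upper-quartile scaling, no filter on low counts, a fit of only the 10 WT livers, an adjusted p of 0.01, limma 3.58.1 (voom with quality weights), 1 surrogate variable (sva 3.50.0) and each WT liver left out. After the data were seen, the 3 WT livers that stood apart on PC2 were left out, and the PC2 score was used as a covariate. Hippocampal libraries were not used here, and some genes of the lists are counted but not reported by name.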

Additional observations from a re-analysis of the deposited data

Results flagged for a closer look

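Among 334 groups of 5 CPM values (167 named genes in WT vehicle and WT CORT liver), 20 held a liver set apart from the other 4 by more than 0.71 of the range of its group, or 5.99%, and chance gives about 1 in 20. Vehicle L4 was high for Mt2 (4.92 CPM, others 0.892 to 1.92), Lpin1 (576 CPM, others 53.7 to 204), Plin4 (4.47 CPM, others 1.08 to 2.02) and Fmo2 (14.7 CPM, others 5.56 to 7.98). CORT L3 was low for Cdkn1a (5.34 CPM, others 88.9 to 117) and high for Ppara (82.4 CPM, others 60.1 to 63.4) and Serpina6 (97.6 CPM, others 53.7 to 64.9). Vehicle L1 was low for Serpina7 (24.2 CPM, others 42.5 to 47.8). These 8 values belong to the 3 livers that stood apart on PC2.

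The other 12 lay in other livers. CORT L15 was high for Ptprc (2.45 CPM, others 1.04 to 1.44), Adgre1 (7.26 CPM, others 4.26 to 4.76) and Cyp2c69 (34.0 CPM, others 2.77 to 10.8). CORT L5 was low for Insr (88.8 CPM, others 96.1 to 98.8) and high for Hp (3964 CPM, others 2949 to 3178), Xbp1 (218 CPM, others 188 to 193) and Sgk1 (20.9 CPM, others 16.2 to 17). CORT L20 was high for Lcn2 (16.6 CPM, others 8.75 to 10.8) and low for Saa3 (0.306 CPM, others 0.621 to 0.692). Vehicle L6 was high for Hk1 (3.78 CPM, others 2.35 to 2.68), vehicle L13 low for Clec4g (32.0 CPM, others 40.6 to 43.9), and vehicle L17 low for Mup3 (5124 CPM, others 6098 to 6495).

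Outside the gene counts, reads that fell on more than 1 gene made up 3.66% (3.40 to 3.89%) of all reads in CORT livers and 3.04% (2.84 to 3.17%) in vehicle livers (exact two-sided permutation test, p = 0.00794, the smallest that 5 against 5 allows).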

How the results depend on the processing

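The 128 genes run singly under the alternatives that passed kept their direction in each of the 20. Among the 37 that did not pass, Cyp7a1 went from -0.99 to 0.86 without the 3 livers that stood apart, and Pck1, Tat, Cyp3a11, H2-K1, Lrat, Nfkbia and Ube3a also took both signs over the alternatives. At an adjusted p of 0.01, 1336 genes passed (645 rose and 691 fell) and 20 metabolic genes fell. With 1 surrogate variable 1629 genes rose, with the PC2 score as covariate 1616 rose, and with either 5 immune genes rose and 2 genes passed the difference between AS and WT liver. That difference gave 9 genes with DESeq2, 2 with no filter on low counts and 1 with limma-voom. The other counts for the 3 groups of lists were within 1.5 times those reported. The count of genes that passed was 1993 with no filter, 2116 in the 10 WT livers alone, 2324 with upper-quartile scaling (886 rose and 1438 fell), 2540 with DESeq2, 2610 with limma-voom, 3233 with the surrogate variable and 3245 with the PC2 covariate, and the cause of these differences was not tested. With 1 liver left out it ranged from 1823 to 2226, with 812 to 1052 that rose and 994 to 1190 that fell. The ranges were 53 to 63 and 24 to 31 for metabolic, 3 to 3 and 64 to 71 for immune, and 28 to 37 and 35 to 40 for secretory genes that rose and fell, and 0 to 0 for the difference. Of the 128 genes that passed, 24 lost their call without the 3 livers that stood apart and 33 at an adjusted p of 0.01. Cd36 and Glul each lost it in 14 of 20 alternatives. No paired analysis was possible because the WT CORT and WT vehicle livers share no mouse numbers. At this depth genes near 3 counts, such as the lymphocyte markers, give imprecise folds.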

Other observations

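Several of the largest changes lay in genes outside the metabolic, immune and secretory lists. Myom3, Cib3 and Cyp2c69 were chosen by size of change among genes that passed without overlap. Their separation and adjusted p are therefore not separate evidence. Myom3, the gene of a muscle sarcomere protein, had 0.144, 0.351, 0.196, 0.210 and 0.0963 CPM in vehicle and 18.5, 15.7, 18.2, 16.6 and 21.1 CPM in CORT livers, and rose with no overlap (log2 6.46 ± 0.359 SE, edgeR adjusted p = 2.33e-10). The vehicle values lay around the floor of 3 counts, so the fold is not precise, and Myom3 passed the low-count filter through CORT livers alone. Cib3, a calcium-binding protein gene, had 3.60, 5.98, 9.52, 2.68 and 12.4 CPM in vehicle and 0.102 to 0.306 CPM in CORT livers and fell (log2 -5.18 ± 0.556 SE, adjusted p = 1.66e-06). Its CORT values lay around the same floor, so this fold is not precise either. Cyp2c69, a P450 gene of a cluster with close copies, was at 0.0481 to 0.210 CPM in vehicle livers and at 2.77, 8.82, 10.8, 34.0 and 3.26 CPM in CORT livers, and the split of reads with its neighbour Cyp2c40 is uncertain.

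Rrm2, the ribonucleotide reductase subunit that cycling cells use to make DNA precursors, had 6.97, 6.88, 4.47, 2.99 and 2.94 CPM in vehicle and 19.1, 17.5, 15.9, 19.3 and 26.3 CPM in CORT livers and rose 4.04-fold (log2 2.01 ± 0.246 SE, edgeR adjusted p = 8.18e-06). Of the other 4 proliferation markers tested, 0 rose and Mcm5, a DNA replication helicase gene, fell, a call lost when any 1 of vehicle L1, L4 or L17 or CORT L5, L12 or L20 was left out. The other 7 of the 12 markers listed were below the filter on low counts.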
